A study of Mus musculus with 4 samples.

Results

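Guanylate-binding proteins are represented here by 7 mouse genes, Gbp2b (also known as Gbp1), Gbp2, Gbp3, Gbp4, Gbp5, Gbp6 and Gbp7. Their probes were found by gene symbol in the annotation of the array platform, current names being set by Entrez identifier, and 12 of the 45281 probes on the array belonged to them, or 7 of 20289 named genes. RNA was hybridised to 4 Illumina bead arrays, on which the labels name the RAW264.7 mouse macrophage line. According to the methods the cells were RAW G9, a single-cell clone of that line carrying a lentiviral GFP-RelA fusion under the Rela promoter and mCherry under the Tnf promoter, so both conditions share these reporters. Cells given LPS from Salmonella minnesota R595 at 10 ng/ml for 4 h gave 2 arrays, replicates A and B. Cells given no LPS gave the other 2, also named A and B, and are called untreated. One label gives these 0 h of incubation, where the methods describe medium alone for the same time. The methods call the replicates biological duplicates. All came from 1 clone, so the errors below measure the spread between these cultures.

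Guanylate-binding proteins are large GTPases of the dynamin superfamily. In mouse macrophages their genes are classic targets of interferon gamma and of type I interferon, and LPS reaches them largely through TLR4, the adaptor TRIF and secreted interferon beta. The proteins assemble on the membranes of pathogen-containing vacuoles and on bacteria that escape into the cytosol. There they help break open the compartment and bring LPS and DNA to the caspase-11 and AIM2 inflammasomes.

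The defining genes of macrophages were present: of 10 markers 8 were detected in each condition, Csf1r, Adgre1 and Lyz2 among them, while Mertk and Marco were not. Their summed signal was 38885 to 40856 on the LPS arrays and 47134 to 54482 on the untreated arrays. Of the markers of other cell types that had a probe, 1 of 6 for T cells was detected in either condition (Cd28, untreated cells alone), 0 of 5 for B cells, 1 of 5 for NK cells (Prf1), 2 of 7 for neutrophils (Elane and S100a8) and 0 of 7 for fibroblasts. The summed T-cell marker signal was 611 to 623 on the LPS arrays and 682 to 692 on the untreated arrays. These sums are not background-subtracted and come mostly from undetected probes, so they are no measure of T-cell transcripts. The part of other cells in the results was not tested. The median probe signal was 104.1 and 105.1 in the LPS arrays and 117.8 and 114.1 in the untreated arrays. Detection means a detection p under 0.1, the share of negative-control bead types at least as bright as the probe; a gene needs 1 probe with this p on both replicates to be called detected. Each LPS array was on a slide of its own and both untreated arrays shared another, so LPS and slide cannot be told apart.

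LPS was followed by a steep rise of the Gbp genes on chromosome 3, while the members on chromosome 5 stayed at background. Gbp2b, Gbp2, Gbp3, Gbp5 and Gbp7, which lie in a row on chromosome 3 with no other protein-coding gene between them, were each detected in cells given LPS. Gbp2b, Gbp2 and Gbp3 were also detected in untreated cells, Gbp5 and Gbp7 were not. Gbp4 and Gbp6, which lie on chromosome 5, were detected in neither condition. Of the 12 probes, 8 were tested and 4 were not, and all 8 were higher with LPS at an adjusted p under 0.05 (limma, Benjamini-Hochberg adjustment over all 17211 tested probes), where 32.6% of all tested probes differed, 13.5% higher and 19.0% lower. Of these 8, 4 passed the filter on detection through the LPS arrays alone, where a probe is high by selection, so their count supports nothing; with no filter, 8 of the 12 member probes passed as higher and none as lower, against 4.11% higher among all 45281 probes.

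The starts of the chromosome 3 members are shown because these genes moved together. Promoters of 5 of the 7 members were taken from a RefSeq table on GRCm38.p6, those of Gbp4 and Gbp6 not being analysed here. They run from 250 bases before to 50 bases after the start. The sequences are printed 5′ to 3′ on the + strand, which is the coding strand of all of them, in the order of the genes along the chromosome. Capitals mark every match to the interferon-stimulated response element, searched as GAAA, any 2 bases and GAAA again, the sequence bound by interferon regulatory factors, on both strands.
Gbp5 chr3:142496684-142496983: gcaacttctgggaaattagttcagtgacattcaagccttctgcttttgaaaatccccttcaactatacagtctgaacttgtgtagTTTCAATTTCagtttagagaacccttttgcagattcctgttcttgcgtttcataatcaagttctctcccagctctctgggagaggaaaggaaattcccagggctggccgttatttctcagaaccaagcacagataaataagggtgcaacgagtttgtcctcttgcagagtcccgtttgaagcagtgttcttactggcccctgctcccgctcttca
Gbp7 chr3:142530086-142530385: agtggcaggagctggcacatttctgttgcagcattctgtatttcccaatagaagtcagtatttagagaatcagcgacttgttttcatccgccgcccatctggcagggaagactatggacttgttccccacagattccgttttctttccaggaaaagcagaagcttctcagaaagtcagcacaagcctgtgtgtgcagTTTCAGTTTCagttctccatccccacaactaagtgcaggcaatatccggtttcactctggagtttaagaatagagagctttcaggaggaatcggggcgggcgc
Gbp3 chr3:142559794-142560093: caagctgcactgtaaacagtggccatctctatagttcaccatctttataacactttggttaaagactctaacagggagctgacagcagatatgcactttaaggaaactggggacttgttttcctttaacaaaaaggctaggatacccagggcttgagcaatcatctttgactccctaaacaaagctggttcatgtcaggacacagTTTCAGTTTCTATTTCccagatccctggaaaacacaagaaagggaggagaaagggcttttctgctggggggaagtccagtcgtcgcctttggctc
Gbp2b chr3:142594597-142594896: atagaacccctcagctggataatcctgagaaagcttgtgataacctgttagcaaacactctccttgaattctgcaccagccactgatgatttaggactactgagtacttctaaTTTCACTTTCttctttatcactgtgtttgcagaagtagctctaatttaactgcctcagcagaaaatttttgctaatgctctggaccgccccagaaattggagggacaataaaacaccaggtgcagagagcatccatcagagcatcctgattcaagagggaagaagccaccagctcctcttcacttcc
Gbp2 chr3:142620413-142620712: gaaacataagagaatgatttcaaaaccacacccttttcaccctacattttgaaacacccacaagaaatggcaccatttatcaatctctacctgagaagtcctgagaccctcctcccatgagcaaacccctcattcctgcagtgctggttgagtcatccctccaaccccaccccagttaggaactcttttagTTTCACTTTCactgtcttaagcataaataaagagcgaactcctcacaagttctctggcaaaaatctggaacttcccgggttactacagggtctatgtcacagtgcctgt

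Each of the 5 genes had such a match in its window, against 3.44% of 32851 RefSeq promoters of the same length. No promoter of an undetected member was searched, so the family gives no contrast for this count. Every match was on the opposite strand, so the printed strand shows its reverse complement. Counted from the start, the match lay at positions -165 to -156 in Gbp5, -53 to -44 in Gbp7, -137 to -128 in Gbp2b and -59 to -50 in Gbp2. Gbp3 had 2 matches that overlap each other, at -45 to -36 and -39 to -30, and its second annotated start, not printed, had none. The gamma-activated site TTCNNNGAA, an element of interferon gamma target genes that reads the same on both strands, occurred 2 times each in Gbp5 and Gbp7 and in none of the other 3, against 8.3% of all promoters. A κB motif, the element bound by NF-κB, occurred in Gbp5 and Gbp2, against 8.46% of all promoters. No GAS or κB match overlapped a response element. Matches describe the sequence, and binding was not measured. Across tested genes with a promoter in the table, 98 of 300 genes with the response element were higher with LPS (32.7%) and 972 of 7487 without it (13.0%), members included. Tested genes include those that passed the detection filter through the LPS arrays alone, where a probe is high by selection. The shares are therefore descriptive, and whether the element has a part in the rise was not tested.

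**Figure D1:**
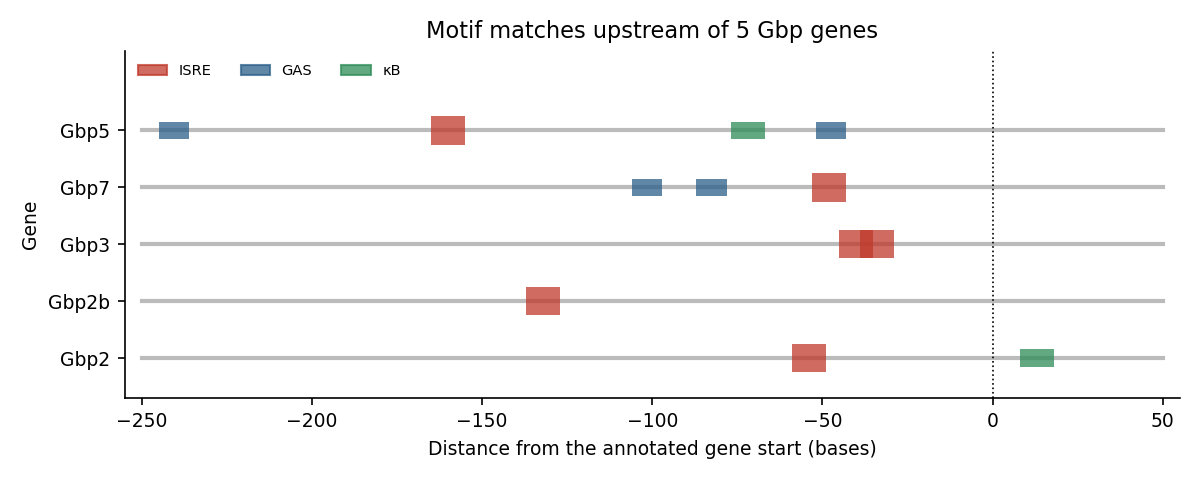
Motif matches around the starts of 5 Gbp genes, in their order along the chromosome. The x axis is the distance in bases from the start used in the RefSeq table, grey lines are the 300 bases searched, and boxes are matches to the interferon-stimulated response element (ISRE, tall), the gamma-activated site (GAS) and the κB motif; every gene has an ISRE match, from -165 in Gbp5 to -30 in Gbp3.

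Gbp2b had the largest fitted change among the tested member probes. The protein acts, like other members, on vacuoles of Toxoplasma gondii in mouse cells. Its 1 probe (ILMN_1233293) read 1884 in LPS replicate A and 1534 in LPS replicate B, against 140 and 128 in untreated replicates A and B, in linear intensity units without background subtraction. Both LPS arrays lay far above both untreated ones, where the probe was dim but detected (detection p 0.00534 and 0.0118). The ratio of these mean signals, LPS over untreated, was 12.8. After background correction and quantile normalization its mean log2 value was 11.06 ± 0.0925 with LPS and 5.0 ± 0.0771 in untreated cells (SD, n = 2 each). The log2 change was 6.06 (standard error 0.135, 95% interval 5.74 to 6.38, adjusted p = 7.45e-07, limma), or 66.7-fold, the 10th largest rise among the 17211 tested probes. In bulk cultures, more transcript per cell and more cells with the transcript cannot be told apart.

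Gbp2, which gathers on vacuoles of Toxoplasma gondii and is needed by mice to control that parasite, was read by 3 probes that differed in size of response. The brightest (ILMN_3122961) had a signal of 1664 and 1437 in the LPS arrays, against 146 and 138 in the untreated arrays. Its log2 change was 5.67 (standard error 0.13, adjusted p = 7.84e-07, limma), or 50.8-fold. Another (ILMN_3047389) had 169 and 175 in the LPS arrays and 109 and 111 in the untreated arrays, where it was not detected. It too separated the conditions, with a log2 change of 2.70 (adjusted p = 3e-05, limma) that corresponds to a rise of at least 5.36-fold. The last probe (ILMN_2605602) had 99 and 101 in the LPS arrays and 106 and 102 in the untreated arrays and was detected in none. All carry the same RefSeq transcript, NM_010260.1, in the annotation, so a probe at background does not by itself show that a gene is silent.

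Gbp3, which promotes caspase-11 activation in mouse macrophages, had 2 probes with like values. The probe ILMN_1244513 had a signal of 1759 and 1967 in the LPS arrays, against 194 and 161 in the untreated arrays, and ILMN_2918002 had 1315 and 1045 in the LPS arrays, against 155 and 150 in the untreated arrays. Both probes were detected on every array, and the LPS arrays lay above the untreated arrays for each. The log2 changes were 5.21 (standard error 0.158, adjusted p = 1.95e-06) and 5.01 (standard error 0.144, adjusted p = 1.57e-06, limma for both), or 36.9-fold and 32.2-fold. Their 95% intervals, 4.84 to 5.58 and 4.67 to 5.35, overlapped.

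Gbp5, which promotes NLRP3 and AIM2 inflammasome assembly, was detected on the LPS arrays only. Its probe ILMN_1244866 read 459 in LPS replicate A and 326 in replicate B, against 110 and 102 in the untreated arrays, where its detection p was 0.764 and 0.986. The LPS replicates stood 0.38 apart on the log2 scale, the widest gap between LPS replicates among the tested member probes, and both lay far above the untreated arrays. Gbp5 was at least 18.8-fold higher with LPS (log2 change 4.58, standard error 0.164, adjusted p = 3.29e-06, limma). The second Gbp5 probe (ILMN_1218150) read 104 and 102 in the LPS arrays and 106 and 110 in the untreated arrays and was not detected.

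Gbp7, which in mice has been linked to the delivery of NADPH oxidase subunits to bacterial compartments, was likewise detected on the LPS arrays only, by both of its probes. ILMN_2860645 had a signal of 296 and 268 in the LPS arrays, against 119 and 113 in the untreated arrays. ILMN_2860649 had 225 and 194 in the LPS arrays, against 113 and 109 in the untreated arrays. Neither probe's groups overlapped. The rise was at least 12.3-fold by ILMN_2860645 (log2 change 3.78, adjusted p = 2.77e-06), and at least 7.71-fold by ILMN_2860649 (log2 change 3.21, adjusted p = 6.2e-06, limma for both).

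The folds given as at least compare the LPS mean with a floor, the dimmest value that counted as detected on each untreated array or the value of the probe where that was brighter, all on the normalized log2 scale. They are lower bounds on that scale alone, since an undetected probe has no measured level and the scale depends on the background correction. Without that correction the change of each of the 8 tested probes was smaller and still past the threshold. The log2 change was then 4.17 for Gbp2b, 3.97 and 1.06 for the brighter and dimmer Gbp2 probes and 3.96 and 3.51 for Gbp3. It was 2.41 for Gbp5 and 1.80 and 1.38 for Gbp7.

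Gbp4 and Gbp6 had 1 probe each, and neither rose above background. The Gbp4 probe (ILMN_2606792) had a signal of 97.5 and 99.1 in the LPS arrays and of 109 and 105 in the untreated arrays. The Gbp6 probe (ILMN_2653249) had 104 and 98.8 in the LPS arrays and 110 and 103 in the untreated arrays. Detection p was 0.264 or more on every array for these and for the other undetected member probes, whose signals were all under the lowest detected signal of their array (107 and 109 in the LPS arrays, 123 and 119 in the untreated arrays). They were not tested. With the filter on detection removed, the 4 undetected probes had log2 changes of 0.01 for Gbp4, 0.10 for Gbp6, 0.08 for Gbp2 and 0.11 for Gbp5, with adjusted p of 0.971, 0.705, 0.616 and 0.594 (limma). A transcript below the reach of a probe was not detectable here, and its absence is not shown.

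**Figure D2:**
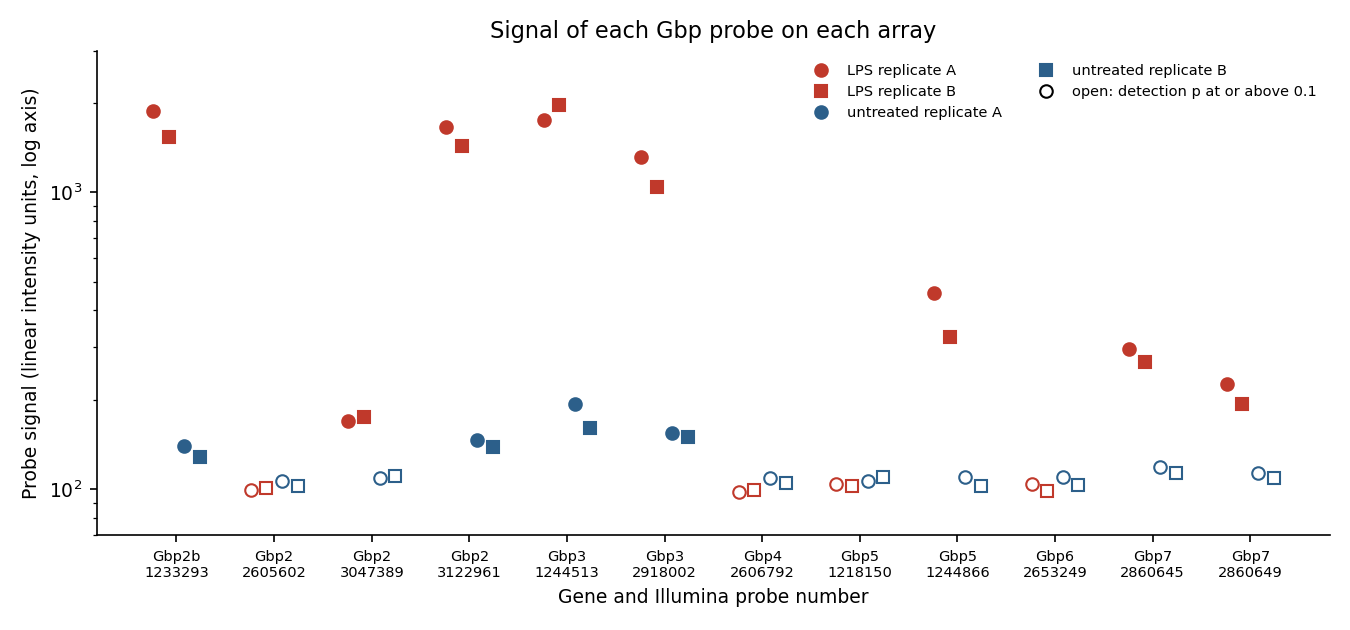
Signal of the 12 Gbp probes on the 4 arrays. The y axis is linear intensity on a log axis, each column is 1 probe with the LPS arrays (red) left of the untreated arrays (blue), circles and squares are replicates A and B, and open symbols have a detection p of 0.1 or more; in 8 probes both LPS arrays lie above both untreated arrays, from 169 upward, and in the other 4 all arrays lie between 97.5 and 110.

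Among the tested member probes the log2 change ran downward from Gbp2b (6.06) through Gbp2 (5.67), Gbp3 (5.21 and 5.01), Gbp5 (4.58) and Gbp7 (3.78 and 3.21) to the dimmer Gbp2 probe (2.70). Over all tested probes the median was -0.07. The 95% intervals of neighbours overlapped among the 4 probes detected in both conditions, those of Gbp2b, Gbp2 and Gbp3. The other 4 were set against background in untreated cells, so their place in the order was not measured. Probes of Gbp2 alone differed widely, at 5.67 and 2.70, so the order is one of probes and not of genes. In the deposited log2 table, where the undetected Gbp4 probe stood at 6.64 in LPS replicate A in place of 4.25, the Gbp3 probe ILMN_1244513 (3.90) came before the brighter Gbp2 probe (3.86).

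**Figure D3:**
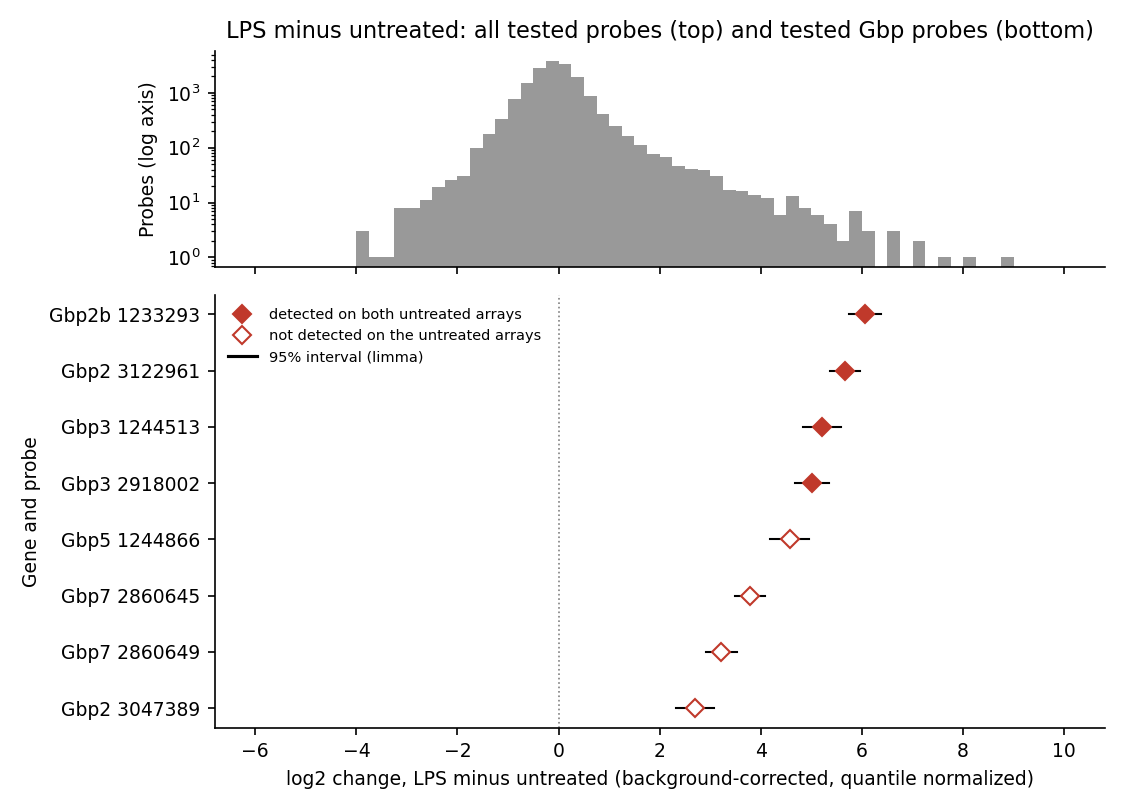
Change of all 17211 tested probes (top, number of probes on a log axis) and of the 8 tested Gbp probes (bottom). The x axis is the log2 change, LPS minus untreated, diamonds are estimates, lines are 95% intervals from limma, and open diamonds were not detected on the untreated arrays; the Gbp probes range from 2.70 to 6.06, in the upper tail of the distribution.

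Replicates of a condition lay close to each other in all of these probes. Between LPS replicates the tested member probes differed by 0.02 to 0.38 on the log2 scale, and between untreated replicates by 0.03 to 0.22, against a median difference of 0.203 and 0.105 over all tested probes. LPS replicate A was the higher in 5 of the probes and replicate B in 3. Over all 12 member probes each value is a mean over 28 to 62 beads. Among the tested ones the standard error over beads was at most 4.74% of the signal in the LPS arrays. With 2 arrays against 2, an exact two-sided permutation test of a single probe cannot go below p = 0.333, so the adjusted p-values rest on the spread that limma borrows from all probes. A random block for slide left the 8 calls in place, though it cannot separate slide from LPS.

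Gbp genes outside these 7 that have probes lie on chromosome 5 too. Gbp8, Gbp9 and the transcribed pseudogene Gbp11 were not detected on any array. Gbp10 was the exception in that cluster, at the edge of detection: the probe read 110 in LPS replicate A and 122 in replicate B, against 120 and 111 in the untreated arrays, with a detection p of 0.0502 and 0.00214 in the LPS arrays. Its log2 change was 0.77 (adjusted p = 0.0687, limma) and did not pass. It passed with median scaling (adjusted p = 0.0394), with replicate letter as a block (adjusted p = 0.014) and without LPS replicate A (adjusted p = 7.85e-05). In all, 5 of 5 chromosome 3 genes with a probe and 1 of 6 chromosome 5 genes were detected with LPS, 3 and 0 of them in untreated cells. The probe sequences were not used here, so how far a probe reads a near-identical member of the family was not tested.

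Most of the other interferon-induced GTPases that were tested rose with the Gbp genes. Of the immunity-related GTPases, partners of the Gbp proteins at pathogen vacuoles, 5 of 6 tested were higher and 0 lower. Over all tested probes 13.5% were higher. Among the 5, Tgtp1 passed the detection filter through the LPS arrays alone. Its signal was 111 and 109 in the LPS arrays and 110 and 110 in the untreated arrays, so its call supports nothing. Iigp1 and Irgc1 had probes but were not tested, none being detected on both replicates of a condition. Igtp rose by 4.09 on the log2 scale (adjusted p = 2.58e-06), Irgm2 by 4.08 (adjusted p = 2.05e-06) and Gm12250, which encodes Irgb10, by 2.98 (adjusted p = 7.83e-06, limma for all). Gm12250 was near the edge of detection in untreated cells (detection p 0.0363 and 0.0427). Its log2 change was 1.35 without background correction and 1.25 in the deposited table. Gvin1, a very large inducible GTPase, rose by 3.45 and the antiviral GTPase gene Mx2 by 5.04 (adjusted p = 5.23e-06 and 1.08e-06). Mx1, undetected in untreated cells, was at least 10.0-fold higher on the corrected scale (log2 change 3.49, adjusted p = 6.2e-06), and its log2 change was 1.59 without background correction and 1.47 in the deposited table. The very large GTPase and Mx genes were higher in 3 of 3 cases, where 13.5% of all tested probes were higher. Mx1 passed the detection filter through the LPS arrays alone, so its call adds nothing to the count. The median log2 change of 3.49 is that of Mx1, set against background in untreated cells. Of atlastin, dynamin-like and mitofusin genes 0 of 5 tested were higher, and Opa1, which fuses mitochondrial inner membranes, fell by 0.60 (adjusted p = 0.0222). That fall did not pass in 6 of the alternatives, among them without untreated replicate A (adjusted p = 0.211) or B (adjusted p = 0.156). The median log2 change was 2.19 for the immunity-related GTPases and -0.14 for the atlastin list, against -0.07 over all tested probes.

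Upstream of Gbp transcription, interferon signalling factors were mostly higher, ligands and receptors were mixed. Ifnb1, which encodes interferon beta, was detected on the LPS arrays only and was at least 20.9-fold higher on the corrected scale (log2 change 4.64, adjusted p = 1.03e-05, limma), while Ifng was not detected. The log2 change of Ifnb1 was 2.47 without background correction and 2.33 in the deposited table. Ifngr1, a chain of the interferon gamma receptor, fell by 1.20 (adjusted p = 0.000967, limma). Of the 8 ligand and receptor genes 4 were tested, and the 2 besides Ifnb1 and Ifngr1 did not pass (median log2 change -0.17). Ifna2, Ifna4 and Ifnar1 were, like Ifng, not tested. Of JAK, STAT and IRF genes and their regulators, 11 of 12 tested were higher and 0 lower, with a median log2 change of 2.08. Over all tested probes 13.5% were higher. Socs1 passed the detection filter through the LPS arrays alone, so its call adds nothing to the count. Its signal was 121 and 111 in the LPS arrays and 115 and 114 in the untreated arrays. Batf2, a transcription factor that acts with Irf1, rose by 4.81 (adjusted p = 6.04e-06), Stat2 by 3.25 and Usp18, a brake on interferon receptor signalling, by 3.18 (adjusted p = 6.2e-06 for both, limma for all). Batf2 was dim in untreated cells, with a signal of 129 and 138. Its log2 change was 3.01 without background correction and 2.89 in the deposited table. Jak1 had a log2 change of -0.07 (adjusted p = 0.702). No probe was named for the immunity-related GTPase gene Tgtp2.

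Downstream, 8 of 9 tested inflammasome genes were higher and 0 lower, with a median log2 change of 1.36. Over all tested probes 13.5% were higher. Il1b and Nlrp3 passed the detection filter through the LPS arrays alone, so their calls add nothing to the count. Nlrc4 and Pycard had probes but were not tested, none being detected on both replicates of a condition. Casp4, which encodes the LPS sensor caspase-11, rose by 2.67 (adjusted p = 1.44e-05) and Il18 by 2.53 (adjusted p = 4.95e-05). Il1b was at least 465-fold higher on the corrected scale (log2 change 8.96, adjusted p = 3.89e-07, limma for all), and its log2 change was 6.64 without background correction and 6.62 in the deposited table. Genes that coat or mark vacuoles were split, with 3 of 11 tested higher, 2 lower and a median log2 change of 0.00, where 13.5% of all tested probes were higher and 19.0% lower. The ubiquitin ligase and antibody receptor gene Trim21 rose by 2.76 (adjusted p = 1.78e-05), the galectin gene Lgals8 by 1.49 (adjusted p = 0.000351) and the autophagy receptor gene Sqstm1 by 0.73 (adjusted p = 0.00526, limma for all). The autophagy genes Atg7 and Atg5 fell by 1.05 (adjusted p = 0.00215, with 1 LPS array detected) and by 0.59 (adjusted p = 0.0145, limma for both). Atg7 passed the detection filter through the untreated arrays alone, so its call adds nothing to the count. The Atg7 signal was 111 and 106 in the LPS arrays and 169 and 154 in the untreated arrays, and its log2 change was -0.31 without background correction. Sqstm1 did not pass with median scaling (0.18, adjusted p = 0.434) or without untreated replicate B (adjusted p = 0.0778), nor Atg5 without untreated replicate A (adjusted p = 0.106) or B (adjusted p = 0.166), or with slide as a random block (adjusted p = 0.0506). Prenylation enzymes, which attach the lipid anchor of those Gbp proteins that end in a CaaX box, had a median log2 change of -0.16: of 6 tested, 0 were higher and 1 was lower, Fnta (-0.57, adjusted p = 0.0144), a share near the 19.0% of all tested probes that were lower. That call was lost without untreated replicate A (adjusted p = 0.11) or B (adjusted p = 0.16), and with a random block for slide (adjusted p = 0.0528).

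**Figure D4:**
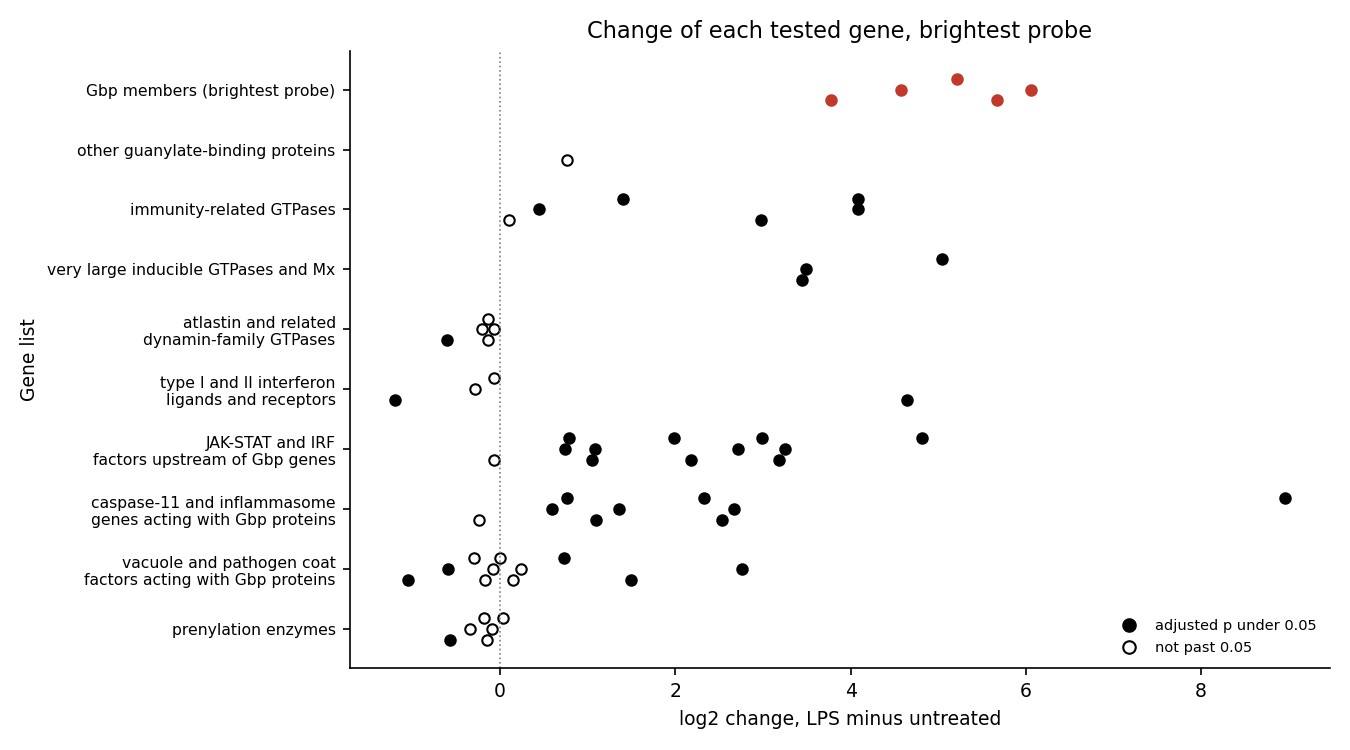
Change of each tested gene, by list, at its brightest probe. The x axis is the log2 change, LPS minus untreated, filled points have an adjusted p under 0.05 (limma) and open points do not; the 5 detected Gbp members lie at 3.78 to 6.06, the immunity-related GTPases reach 4.09, and the atlastin and prenylation lists lie near 0.

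The genes whose arrays most resembled a member's were sought among all tested probes outside the family, by the Euclidean distance over the 4 arrays after each probe was centred on its untreated mean. For Gbp2b the nearest was the antiviral gene Rsad2 (distance 0.238, log2 change 5.99), and for Gbp2 the antiviral gene Ifit2 (0.162, log2 change 5.76). Both are interferon-stimulated genes. Gbp3 lay nearest to a probe of the chemokine gene Cxcl2 (distance 0.171), Gbp5 to one of Tnf (0.127) and Gbp7 to the signalling regulator gene Rgs16 (0.101). The Cxcl2 probe was not detected on the untreated arrays, so its change was set against background, unlike that of Gbp3. With 4 arrays in 2 conditions, this measure finds little more than probes with a change of the same size.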

How the data were processed

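Signal intensity, detection p-values, bead numbers and bead standard errors were taken from the files of the 4 single arrays. The authors extracted the intensity with GenomeStudio 2011.1, per the file headers as a linear mean over beads, and the deposited values are not background-subtracted. The deposited detection p-value ranks each probe among its array's negative controls. A deposited table holds log2 values that share 1 distribution over the arrays and whose normalization target is not given in the sources used here; it served as an alternative.

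Probes were named from the platform annotation: 28620 through Entrez identifier, 2637 through accession, 2128 by current symbol and 2343 by older synonym, while 56 kept their symbol and 9497 had none. The RefSeq table (GRCm38.p6) gave names, neighbours and promoters only.

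Signals were corrected by the neqc method of limma 3.58.1 (R 4.3.3; offset 16), which estimates the background by means of the detection p, normalizes quantiles and gives log2 values. A probe was tested if both replicates of LPS or of untreated cells had a detection p under 0.1, and these 17211 were fitted with lmFit and eBayes, LPS minus untreated, and adjusted over all of them with a threshold of 0.05. The fit was checked on simulated data. Other lists are read at the brightest tested probe of each gene. Named genes are all members, up to 3 rises and 2 falls past the threshold in each other list with no overlap between conditions, all of a list of 4 or fewer, and the gene nearest to each member. Jak1, Ifng, Tgtp2, Tgtp1, Iigp1, Irgc1, Ifna2, Ifna4, Ifnar1, Socs1, Nlrp3, Nlrc4 and Pycard were added after their values were seen. Alternatives covered background correction, scaling, the deposited table, the detection filter, slide, replicate letter, the variance prior and leaving out each array. The members and lists were chosen with earlier results of these data known. The number of arrays limits the precision.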

Additional observations from a re-analysis of the deposited data

How the results depend on the processing

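All 8 tested member probes were higher with LPS in each of the 13 alternatives run (8 higher and 0 lower each time, replicate letter as a block included), and 5 members were detected with LPS in every setting of detection tried. The size of the change did depend on the setting. It was lowest in the deposited log2 table for each of the 8 probes: 4.08 for Gbp2b, 3.86 and 0.97 for Gbp2, 3.90 and 3.40 for Gbp3, 2.27 for Gbp5 and 1.68 and 1.27 for Gbp7. Leaving out the background correction alone gave values close to these, 4.17 for Gbp2b and 2.41 for Gbp5. At a detection p under 0.01, 2 members were detected in untreated cells in place of 3, Gbp2b being the one lost. The largest adjusted p of any member probe was 0.00271, in the deposited table. Over all probes, median scaling gave 819 higher and 10095 lower in place of 2332 and 3273. It shifted the median change of tested probes to -0.62, against -0.07. Of the genes of the other lists it gave 24 as higher in place of 31, and 23 as lower in place of 5. The cause was not tested. With slide as a random block 2017 probes and 2 genes of the other lists were lower. Leaving out 1 array gave 1085 to 4032 probes higher and 1013 to 4859 lower, and 2 to 7 genes of the other lists lower, the lowest counts without an untreated array. The lone array of a condition is then assumed to vary like the other condition. The letters A and B pair no arrays by the labels; deviations of same-letter arrays correlated at 0.145, and the replicate block gave 2639 probes higher and 3689 lower. Of 285 comparisons of named genes in the other lists with an alternative, 268 kept their call, 14 lost it, 3 gained it and 0 reversed. Limma's own duplicateCorrelation asks for more arrays than these 4, so its steps were run directly, with a correlation of 0.548. Signal near background limits the untreated levels of Gbp2b, Gbp2, Gbp5, Gbp7, Gbp4 and Gbp6, and with them the size of the folds.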
